A study of Mus musculus with 8 samples.

Results

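Sodium, potassium, HCN and calcium channel subunits were examined in the cingulate gyrus of male mice that lack the major vault protein gene *Mvp*. The list held 43 channel genes, named by symbol and chosen with earlier results of these data known. Each was matched to 1 Ensembl identifier among the 53379 in the table of counts. All 43 passed the filter on low counts that left 16914 genes for testing. Bulk RNA sequencing covered 4 samples from *Mvp+/+* mice (WT) and 4 from *Mvp-/-* mice (Mvp KO), all of them male and without treatment, with the tissue labelled cingulate cortex. The Mvp KO allele is a gene trap, a cassette in the first intron that ends the transcript early, and it is carried by every cell of the animal and not by neurons alone. The age of these mice is not given in the sources used here. The study asked which genes of this region change with loss of *Mvp*, and the channel genes, which set how readily its neurons fire, were read from that comparison.

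Voltage-gated channels open when the membrane potential changes. Sodium channels carry the rising phase of the action potential, potassium channels end it and set the interval to the next one, and calcium channels turn it into calcium entry that drives transmitter release and gene expression. The pore is formed by α subunits, and β and α2δ subunits bind to it and change its surface level and its gating. Inward rectifiers, SK channels and HCN channels set the resting potential and the firing rhythm.

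*Mvp* itself was read in every sample first. Its level was 6.81, 7.12, 7.89 and 5.49 CPM (counts scaled by TMM factors to a library of 1000000) in WT replicates 1 to 4, and 1.45, 1.44, 2.13 and 1.51 CPM in Mvp KO replicates 1 to 4. The genotypes did not overlap, and the log2 fold change of Mvp KO over WT was -2.06 with a standard error (SE) of 0.19 (edgeR quasi-likelihood test, Benjamini-Hochberg adjusted p = 0.0162). The direction held when any 1 sample was left out. The call held without WT replicate 4 or Mvp KO replicate 3, while without WT replicate 1, 2 or 3 or Mvp KO replicate 1, 2 or 4 the edgeR adjusted p was between 0.0918 and 0.147, with log2 fold changes from -2.06 to -1.99. Total counts lay between 28456504 and 42854368 per sample, and a channel gene had between 491 and 16564 counts in a sample. WT replicate 4 stood apart from the other 7 samples, at 71.5 on the first principal component against -20.4 to -2.78, and that component held 46.0% of the variance. Many of the values that rest on this sample are therefore also given without it. All 8 markers of cortical neurons were detected in every sample, with a summed level of 7404 to 9388 CPM. Markers of striatal neurons were detected too, with a sum of 305 CPM in WT replicate 4 and of 152 to 227 CPM elsewhere.

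No channel gene passed the test for a difference between the genotypes. The edgeR quasi-likelihood test called 0 of 43 at an adjusted p under 0.05, against 1 of all 16914 genes tested, or 0.00591%, and that gene was *Mvp*. At an unadjusted p under 0.05 the count was again 0 of 43, where 1.56% of all genes passed. The 4 samples of one genotype lay wholly above those of the other for 0 of 43 channel genes and for 1.52% of all genes. With shares this small over all genes, a count of 0 among 43 does not set the channel genes apart. Adjusted p values ran from 0.969 to 0.998 (edgeR), and 23 log2 fold changes were above 0 and 20 below (25 and 18 without WT replicate 4). The median log2 fold change of the channel genes was 0.012, beside a median of 0 over all genes tested.

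The precision behind these values can be read from the intervals. The median SE of a log2 fold change was 0.12 for the channel genes and 0.14 for all genes. For 36 of 43 channel genes (83.7%) the 95% interval stayed within a 1.5-fold change in either direction, as it did for 64.5% of all genes. Within a 2-fold change lay the intervals of 41 of 43 (95.3%), against 86.7% of all genes. The exceptions at 2-fold were *Kcnh1*, from -1.04 to 0.20, and *Scn4b*, from -0.58 to 1.17 on the log2 scale. For these 2 genes the spread between samples left a change of 2-fold inside the interval. In bulk tissue, fewer cells of a type and less RNA per cell cannot be told apart.

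**Figure D1:**
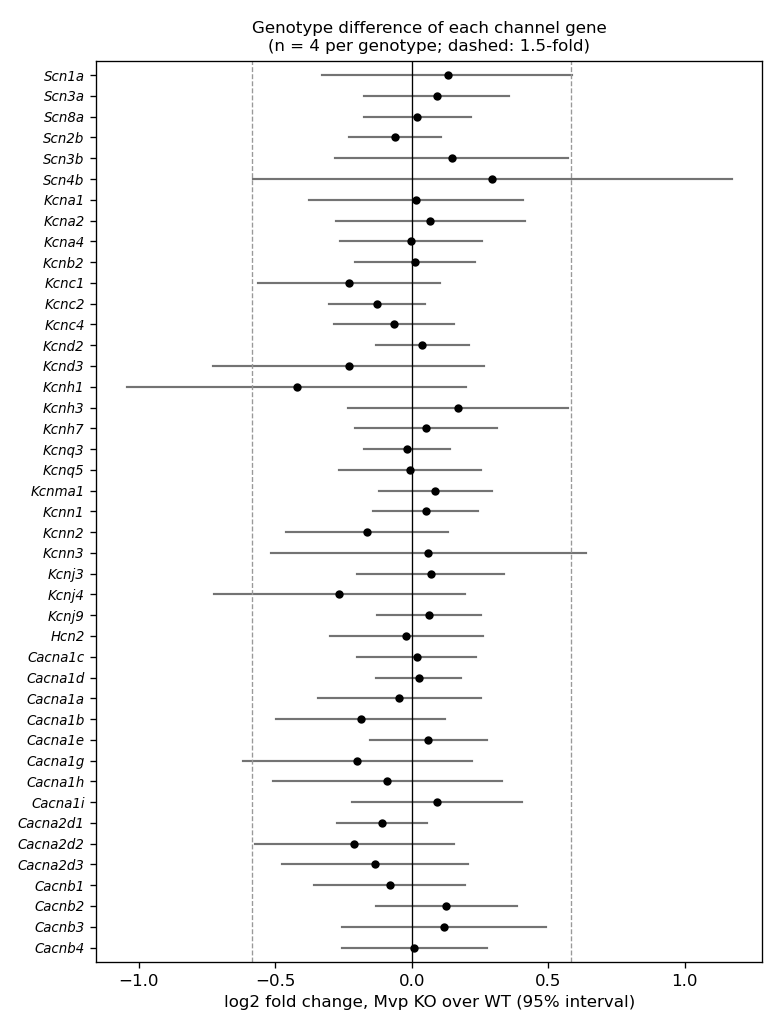
Log2 fold change of Mvp KO over WT (horizontal axis) for each of the 43 channel genes, with bars for the 95% interval of the edgeR fit (n = 4 per genotype) and dashed lines at 1.5-fold. Every interval includes 0, and the widest are those of *Scn4b* and *Kcnh1*.

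The 5 genes with the smallest p were *Kcnc2*, *Kcnc1*, *Kcnh1*, *Cacna2d1* and *Cacna1b*, and all 5 had a lower mean in Mvp KO. *Kcnc2* encodes Kv3.2, a fast potassium channel of interneurons that fire at high rates. Its level was 178, 184, 189 and 205 CPM in WT replicates 1 to 4 and 155, 179, 186 and 171 CPM in Mvp KO replicates 1 to 4. The genotypes overlapped, with Mvp KO replicate 3 above WT replicates 1 and 2. The log2 fold change was -0.13 (SE 0.078, edgeR unadjusted p = 0.137, adjusted p = 0.969), and without WT replicate 4 it was -0.084.

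*Cacna2d1*, on chromosome 5 at 15934691 to 16374511 (GRCm38, plus strand), encodes α2δ-1, which carries calcium channels to the surface and binds gabapentin. It stood at 362, 362, 328 and 393 CPM in WT replicates 1 to 4 and at 318, 335, 348 and 339 CPM in Mvp KO replicates 1 to 4. WT replicate 3 was the only WT sample below any Mvp KO sample. Its log2 fold change was -0.11 (SE 0.073, edgeR adjusted p = 0.969), and -0.064 without WT replicate 4. *Cacna1b* encodes Cav2.2, the N-type channel of presynaptic terminals. It read 143, 136, 130.2 and 198 CPM in WT replicates 1 to 4, and 118, 126, 142 and 147 CPM in Mvp KO replicates 1 to 4. The high WT mean came from WT replicate 4 alone, and the log2 fold change moved from -0.19 to -0.030 without that sample.

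Levels of different genes were compared per kilobase of exon, since a longer transcript gives more reads. These values use the union of all annotated exons, which can include exons that the cortex does not use, and the order was read again with the longest coding transcript of each gene. Across the 16 role groups, 1 leading gene changed with that choice, in the EAG family.

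**Figure D2:**
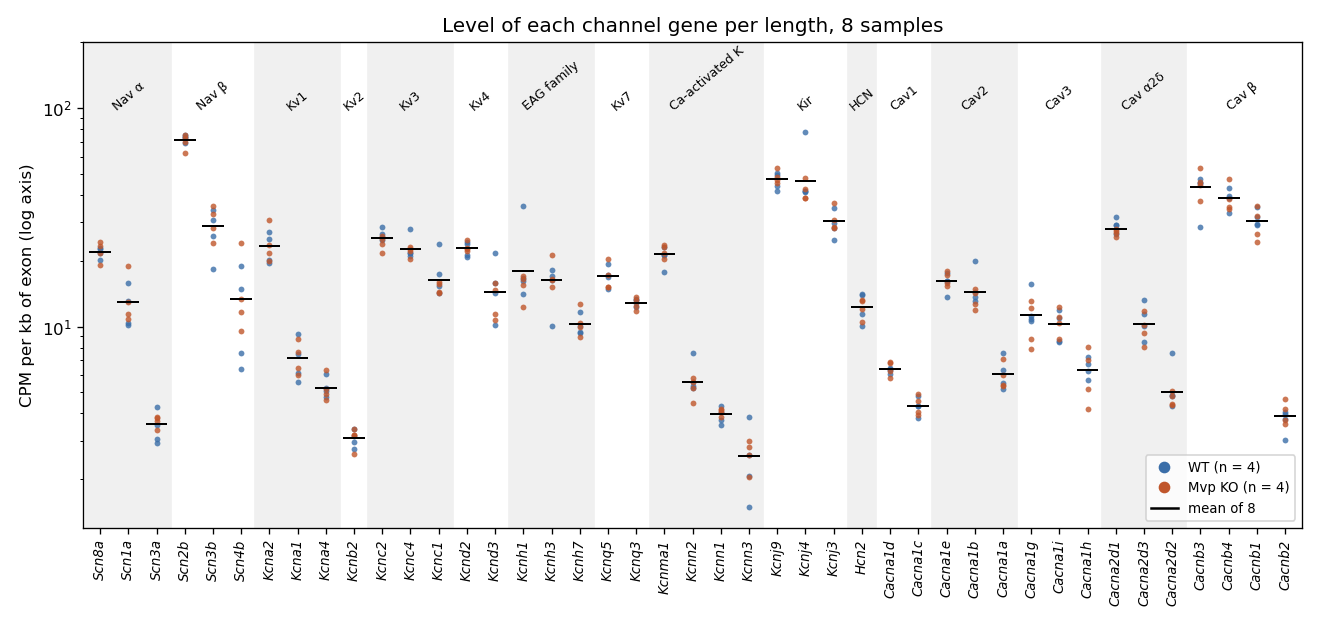
CPM per kilobase of exon (vertical log axis) of each channel gene in the 8 samples, grouped by role, with WT and Mvp KO samples as separate points. Levels run from about 1.49 for the lowest sample of *Kcnn3* to 77.4 for *Kcnj4* in WT replicate 4, and the genotypes overlap for every gene.

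Among the sodium channel α subunits, *Scn8a* had the highest level per length. It encodes Nav1.6, the main channel of the axon initial segment in mature neurons. Its level was 21.97 ± 1.67 CPM per kb (SD, n = 8), against 12.9 ± 3.08 for *Scn1a* and 3.56 ± 0.442 for *Scn3a*, and this order held in 8 of 8 samples with no overlap between neighbours. *Scn1a* encodes Nav1.1, on which interneurons depend, and *Scn3a* encodes Nav1.3, the form best known from the embryonic brain. *Scn8a* read 318, 359.5, 357 and 341 CPM in WT replicates 1 to 4 and 303, 383, 368 and 342 CPM in Mvp KO replicates 1 to 4. The genotypes overlapped over nearly their whole range, and the log2 fold change was 0.020 (95% interval -0.18 to 0.22). *Scn1a* and *Scn3a* had log2 fold changes of 0.13 and 0.092, neither called.

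The sodium channel β subunits are single-pass proteins that tune the gating of the pore and anchor it. *Scn2b* led them at 71.6 ± 4.28 CPM per kb, the highest mean of all 43 genes, followed by *Scn3b* at 28.7 ± 5.78 and *Scn4b* at 13.3 ± 5.99. *Scn2b* read 323, 344, 349.9 and 344 CPM in WT replicates 1 to 4 and 290.4, 338, 349.8 and 326 CPM in Mvp KO replicates 1 to 4. It varied little between samples, with a coefficient of variation (CV, the SD over the mean of the 8 samples) of 5.98%. A second β gene close by on the same strand of chromosome 9 varied far more. *Scn2b* lies at 45117782 to 45130070 and *Scn4b* at 45138395 to 45154152 (GRCm38), yet *Scn4b* had the highest CV of the 43 genes, 44.99%. *Scn4b* encodes the subunit tied to resurgent sodium current, which helps neurons fire fast. Its level was 31.9, 94.7, 73.8 and 37.7 CPM in WT replicates 1 to 4, and 58.3, 121, 66.3 and 47.3 CPM in Mvp KO replicates 1 to 4. WT replicate 2 and Mvp KO replicate 2 were the highest samples, and WT replicates 1 and 4 the lowest. The log2 fold change of *Scn4b* was 0.30 (SE 0.39, edgeR adjusted p = 0.969), and without WT replicate 4 it was 0.13. *Scn3b* ranged from 100 to 195 CPM, with WT replicate 4 the lowest sample. Its log2 fold change went from 0.15 to 0.00014 without that sample.

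In the Kv1 family of low-threshold potassium channels of the axon, *Kcna2* (Kv1.2) had 23.5 ± 3.98 CPM per kb, *Kcna1* (Kv1.1) 7.16 ± 1.36 and *Kcna4* (Kv1.4) 5.25 ± 0.613. *Kcna2* exceeded *Kcna1* in 8 of 8 samples with no overlap. *Kcna2* read 239, 321, 300 and 232 CPM in WT replicates 1 to 4 and 239, 367, 279.7 and 259 CPM in Mvp KO replicates 1 to 4. The 2 highest values were those of WT replicate 2 and Mvp KO replicate 2, and the log2 fold change was 0.067 (edgeR adjusted p = 0.974). *Kcna1* and *Kcna4* spanned 26.5 to 44.4 CPM and 22.2 to 30.6 CPM. *Kcnb2* was the single Kv2 member, a delayed rectifier, at 3.08 ± 0.285 CPM per kb. It read 45.1, 51.5, 47.8 and 41.6 CPM in WT replicates 1 to 4 and 39.5, 51.3, 48.3 and 48.4 CPM in Mvp KO replicates 1 to 4, with means that differed by less than the spread within either genotype.

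The 3 Kv3 genes, whose channels repolarise the membrane quickly and so allow firing at high rates, lay close together per length. *Kcnc2* had 25.3 ± 2.01 CPM per kb, *Kcnc4* (Kv3.4) 22.5 ± 2.29 and *Kcnc1* (Kv3.1) 16.4 ± 3.20. The ranges of neighbours overlapped, although the order held within each of the 8 samples. All 3 log2 fold changes were below 0, at -0.23 for *Kcnc1*, -0.13 for *Kcnc2* and -0.064 for *Kcnc4*, and none passed the test. *Kcnc1* read 134, 165, 145 and 225 CPM in WT replicates 1 to 4 and 135, 149, 136 and 152 CPM in Mvp KO replicates 1 to 4. One sample, WT replicate 4, set the WT mean. Without it the log2 fold change of *Kcnc1* went from -0.23 to -0.050, and that of *Kcnc4* from -0.064 to 0.042.

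The Kv4 channels carry the A-type current of dendrites. *Kcnd2* (Kv4.2) had 22.9 ± 1.47 CPM per kb and *Kcnd3* (Kv4.3) 14.3 ± 3.76, with *Kcnd2* higher in 7 of 8 samples and overlapping ranges. *Kcnd2* was steady, at 109, 125, 124 and 107 CPM in WT replicates 1 to 4 and 117, 128, 118 and 114 CPM in Mvp KO replicates 1 to 4. *Kcnd3* was not, at 151, 96.99, 137 and 209 CPM in WT replicates 1 to 4, and 109.7, 103, 141 and 152 CPM in Mvp KO replicates 1 to 4. It was highest in WT replicate 4 and lowest in WT replicate 2, so the whole range of Mvp KO samples fell inside that of WT. Its log2 fold change was -0.23 and, without WT replicate 4, -0.018.

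The EAG family holds potassium channels related to the ether-à-go-go channel of the fly. *Kcnh1* (Kv10.1), *Kcnh3* (Kv12.2) and *Kcnh7* (Kv11.3) had 17.96 ± 7.25, 16.3 ± 3.12 and 10.3 ± 1.27 CPM per kb. *Kcnh1* and *Kcnh3* cannot be ordered, since *Kcnh1* was higher in 3 of 8 samples and its mean rests on WT replicate 4. With the longest coding transcript, *Kcnh3* stood at 25.4 and *Kcnh1* at 18.2 CPM per kb. *Kcnh1* read 103, 122, 118 and 260 CPM in WT replicates 1 to 4, and 90.01, 114, 121 and 125 CPM in Mvp KO replicates 1 to 4. Its log2 fold change, -0.42 (SE 0.28, edgeR adjusted p = 0.969), was the furthest from 0 of the 43 and went to -0.021 without WT replicate 4. *Kcnh3* read 97.7, 104, 94.1 and 57.95 CPM in WT replicates 1 to 4 and 94.5, 87.5, 94.5 and 122 CPM in Mvp KO replicates 1 to 4. The low WT replicate 4 is the only WT value below all Mvp KO values, and the log2 fold change moved from 0.17 to 0.017 without it.

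The Kv7 channels carry the M-current, which muscarinic receptors suppress to raise excitability. *Kcnq5* had 17.01 ± 2.03 CPM per kb and *Kcnq3* 12.8 ± 0.657, with *Kcnq5* higher in 8 of 8 samples with no overlap. *Kcnq5* read 114, 148, 132 and 130 CPM in WT replicates 1 to 4 and 117, 157, 132 and 116 CPM in Mvp KO replicates 1 to 4. *Kcnq3* had the lowest CV of the 43 genes, 5.12%, and ranged from 172 to 202 CPM. The 95% interval of its log2 fold change ran from -0.18 to 0.14.

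Of the calcium-activated potassium channels, *Kcnma1* encodes the BK channel, which opens with voltage and calcium together, and *Kcnn1*, *Kcnn2* and *Kcnn3* encode SK channels of the slower afterhyperpolarisation. *Kcnma1* had 21.5 ± 1.88 CPM per kb, above *Kcnn2* at 5.60 ± 0.883, *Kcnn1* at 3.99 ± 0.257 and *Kcnn3* at 2.55 ± 0.712. The last place of *Kcnn3* depends on the length used, since it exceeded *Kcnn1* in 8 of 8 samples with the longest coding transcript. *Kcnma1* read 359.6, 362, 394 and 302 CPM in WT replicates 1 to 4 and 346, 400.1, 392 and 367 CPM in Mvp KO replicates 1 to 4. *Kcnn3* read 40.2, 21.6, 27.1 and 15.6 CPM in WT replicates 1 to 4, and 26.99, 21.4, 29.2 and 31.4 CPM in Mvp KO replicates 1 to 4. WT samples of *Kcnn3* held both the highest and the lowest value, with all Mvp KO samples between them. Its log2 fold change was 0.061 with all samples and -0.12 without WT replicate 4, and neither passed the test.

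Inward rectifiers pass potassium best near the resting potential. *Kcnj3* and *Kcnj9* encode the G protein-gated subunits GIRK1 and GIRK3, and *Kcnj4* encodes the constitutively active Kir2.3. *Kcnj9* and *Kcnj4* had like means, 47.4 ± 3.68 and 46.3 ± 12.9 CPM per kb, with *Kcnj9* higher in 7 of 8 samples, and *Kcnj3* had 30.3 ± 3.84. *Kcnj9* read 188, 216, 211 and 179 CPM in WT replicates 1 to 4 and 201, 194, 207 and 228 CPM in Mvp KO replicates 1 to 4. *Kcnj4* read 89.8, 90.2, 88.7 and 167 CPM in WT replicates 1 to 4, and 83.9, 83.4, 91.95 and 103 CPM in Mvp KO replicates 1 to 4. Apart from WT replicate 4, the *Kcnj4* values of the genotypes lay in one range, and the log2 fold change went from -0.27 to 0.019 without that sample. Exons of a gene model on the opposite strand, *Gm26794*, cover 31.1% of the exonic bases of *Kcnj3*, and the strand setting used in counting is not given. *Hcn2*, whose channel opens on hyperpolarisation and is gated by cyclic AMP, was the single HCN member, at 12.3 ± 1.55 CPM per kb. It read 32, 44.97, 36.6 and 44.6 CPM in WT replicates 1 to 4 and 33.5, 41.9, 38.3 and 42.4 CPM in Mvp KO replicates 1 to 4, and its genotype means differed by less than the spread within either.

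The calcium channel α1 subunits fell into 3 families. Cav1 channels couple activity to gene expression in the soma and dendrites, and *Cacna1d* (Cav1.3) had 6.38 ± 0.339 CPM per kb against 4.34 ± 0.407 for *Cacna1c* (Cav1.2), higher in 8 of 8 samples. *Cacna1d* read 80.98, 76.9, 81.3 and 80.1 CPM in WT replicates 1 to 4 and 79.2, 73.5, 86.6 and 85.5 CPM in Mvp KO replicates 1 to 4. The WT samples of *Cacna1d* were close together, with an SD of 2.02 CPM, and lay inside the range of the Mvp KO samples. Cav2 channels trigger transmitter release, and *Cacna1e* (Cav2.3, the R-type) had 16.2 ± 1.44 CPM per kb, *Cacna1b* 14.4 ± 2.46 and *Cacna1a* (Cav2.1, the P/Q-type) 6.04 ± 0.869. *Cacna1e* exceeded *Cacna1b* in 6 of 8 samples with union exons, where their ranges overlapped, and in 8 of 8 with the longest coding transcript. Its mean was the higher with either length. *Cacna1b* exceeded *Cacna1a* in 8 of 8 without overlap. *Cacna1e* read 445, 343, 408 and 408 CPM in WT replicates 1 to 4 and 398, 385, 436 and 455 CPM in Mvp KO replicates 1 to 4.

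Cav3 channels open at low voltage and support burst firing. *Cacna1g* (Cav3.1) and *Cacna1i* (Cav3.3) were not separated per length, at 11.3 ± 2.43 and 10.3 ± 1.53 CPM per kb with *Cacna1g* higher in 5 of 8 samples (7 of 8 with the longest coding transcript), and *Cacna1h* (Cav3.2) was lower at 6.29 ± 1.24. *Cacna1g* read 107, 110.2, 113 and 158 CPM in WT replicates 1 to 4 and 89.01, 79.95, 124 and 133 CPM in Mvp KO replicates 1 to 4. Its lowest samples were Mvp KO replicates 1 and 2 and its highest WT replicate 4, and the log2 fold change went from -0.20 to -0.047 without the latter. *Cacna1h* was lowest in Mvp KO replicate 2 as well, at 0.617 of the median of the other 7 samples.

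Among the auxiliary calcium channel subunits, *Cacna2d1* led the α2δ genes at 28.04 ± 1.93 CPM per kb, followed by *Cacna2d3* at 10.3 ± 1.75 and *Cacna2d2* at 5.03 ± 1.06, in 8 of 8 samples and with no overlap. All 3 log2 fold changes of the α2δ genes were below 0, from -0.21 to -0.11, and none passed the test. That of *Cacna2d3* went from -0.13 to -0.017 without WT replicate 4. *Cacna2d2* read 34.4, 38.8, 38.2 and 60.2 CPM in WT replicates 1 to 4 and 35.1, 34.9, 40.2 and 38.2 CPM in Mvp KO replicates 1 to 4. Apart from WT replicate 4 its 7 samples were close together, and without that sample the log2 fold change went from -0.21 to 0.00017. The cytoplasmic β subunits bring the pore to the membrane. *Cacnb3* had 43.5 ± 7.42 CPM per kb, *Cacnb4* 38.7 ± 4.67, *Cacnb1* 30.5 ± 3.93 and *Cacnb2* 3.88 ± 0.482, and the first 3 overlapped while *Cacnb2* lay far below. With the longest coding transcript *Cacnb4* exceeded *Cacnb1* in 4 of 8 samples. *Cacnb3* read 182, 191, 183 and 114 CPM in WT replicates 1 to 4 and 179, 151, 184 and 214 CPM in Mvp KO replicates 1 to 4. WT replicate 4 was the lowest sample, and the log2 fold change turned from 0.12 to -0.025 without it. For *Cacnb4*, 16% of the exonic bases are shared with a gene model on the opposite strand.

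Across the 8 samples the channel genes were about as variable as other genes. Their median CV was 12.7%, against 13.8% over all genes tested, and without WT replicate 4 it was 11.1% against 10.2%. The highest sample was under 1.5-fold above the lowest for 24 of 43 genes and at least 2-fold above it for 5, namely *Scn4b*, *Kcnh1*, *Kcnn3*, *Kcnd3* and *Kcnh3*. Summed over all 43 genes, the level was 5788, 6168, 6120 and 6308 CPM in WT replicates 1 to 4 and 5460, 6270, 6225 and 6184 CPM in Mvp KO replicates 1 to 4. The lowest sum was that of Mvp KO replicate 1, which also had the highest summed oligodendrocyte markers, 5518 CPM against 1291 to 3771 CPM elsewhere, and their part in the channel values was not tested. Of the 43 genes, 14 were highest in WT replicate 4, 12 in Mvp KO replicate 2 and 9 in Mvp KO replicate 4.

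WT replicate 4 lay 1.5-fold or more away from the median over the other 7 samples for 10 of the 43 genes, 5 upwards and 5 downwards. The upward share of 11.6% stands beside 10.4% of all genes, and the downward share of 11.6% beside 14.1%, so the channel genes departed in this sample about as often as genes in general. It held the highest value of the 8 for 14 channel genes (32.6%, all genes 29.2%) and the lowest for 11 (25.6%, all genes 32.5%). The genes that stood high were *Kcnh1*, at 2.2 times the median, *Kcnj4* at 1.85, *Cacna2d2* at 1.57, *Kcnc1* at 1.55 and *Kcnd3* at 1.52. Those that stood low were *Scn4b* at 0.569, *Kcnn3* at 0.576, *Scn3b* at 0.596, *Kcnh3* at 0.613 and *Cacnb3* at 0.626. Of the genes that stayed within the limit, those nearest to it were *Cacna1b* at 1.45, *Kcna1* at 1.44, *Cacna1g* at 1.43 and *Kcnn2* at 1.41, and on the low side *Cacnb2* at 0.761. In no other sample did more than 3 channel genes depart this far. Among the 4 WT samples alone, WT replicate 4 passed Dixon's critical value for an outlying sample in 7 of 43 channel genes (16.3%) and in 10.3% of all genes tested.

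Other lists also moved in WT replicate 4. All 7 immediate early genes were highest there, with a sum of 2334 CPM against 544.5 to 1430 CPM, and 5 of 7 striatal neuron markers were highest there as well. *Adora2a*, a receptor of striatal projection neurons, read 18.4 CPM against 1.80 to 2.64 CPM elsewhere, and *Gad2*, an enzyme of inhibitory neurons, 545 CPM against 154 to 205 CPM. *Cux2*, a marker of upper cortical layers, read 132 CPM against 48.4 to 70.02 CPM, and no listed marker was at 0 in any sample. The part of these lists in the channel values was not tested.

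**Figure D3:**
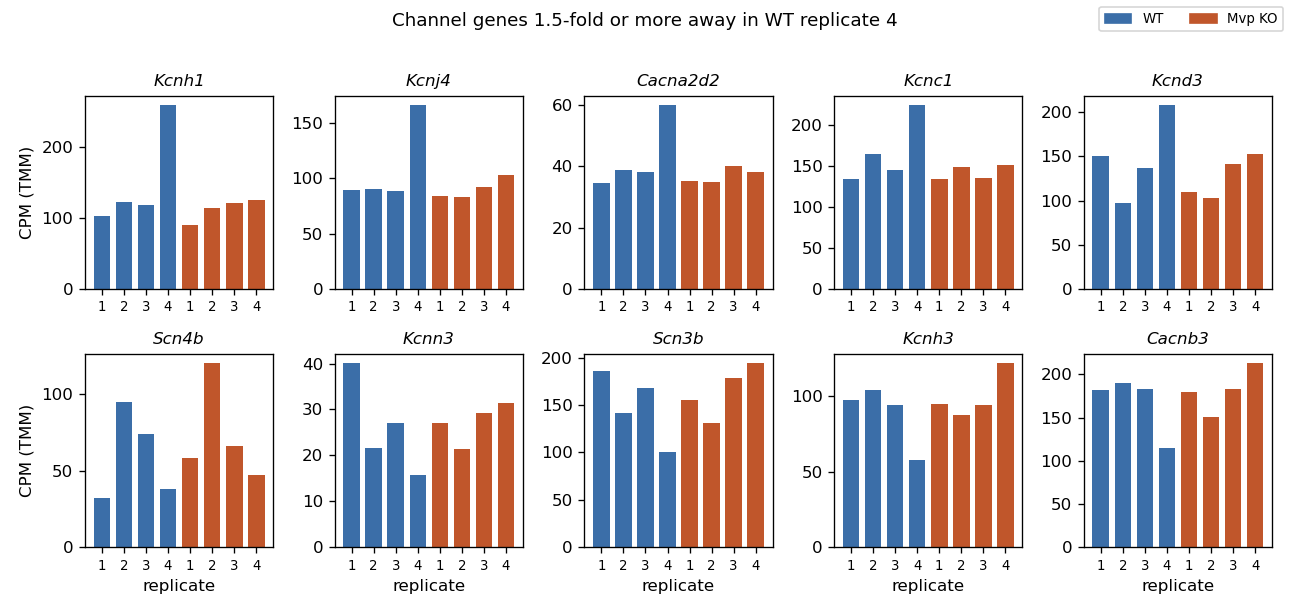
CPM in each sample (bars, replicates 1 to 4 of WT and Mvp KO) for the 10 channel genes in which WT replicate 4 lay 1.5-fold or more away from the others' median. The fourth WT bar is the highest for 5 genes, and for the other 5 it is the lowest or, for *Scn4b*, the second lowest.

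The bases before the start of 3 of these genes are shown because the genes moved furthest in WT replicate 4 among those with a start site annotated at the end of the gene, *Kcnh1* and *Kcnj4* upwards and *Kcnn3* downwards. Each run is the 250 bases before a RefSeq transcript start (GRCm38.p6), read 5′ to 3′ on the strand of the gene, and capitals mark the GC box GGGCGG on either strand. The windows are chr1:192190527-192190776 for *Kcnh1* on the plus strand, chr15:79505242-79505491 for *Kcnj4* on the minus strand and chr3:89519914-89520163 for *Kcnn3* on the plus strand.
Kcnh1: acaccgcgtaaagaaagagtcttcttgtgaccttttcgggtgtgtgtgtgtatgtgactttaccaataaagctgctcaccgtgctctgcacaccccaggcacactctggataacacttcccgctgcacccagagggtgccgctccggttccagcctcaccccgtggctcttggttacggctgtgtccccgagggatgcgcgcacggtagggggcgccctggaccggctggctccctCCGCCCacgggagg
Kcnj4: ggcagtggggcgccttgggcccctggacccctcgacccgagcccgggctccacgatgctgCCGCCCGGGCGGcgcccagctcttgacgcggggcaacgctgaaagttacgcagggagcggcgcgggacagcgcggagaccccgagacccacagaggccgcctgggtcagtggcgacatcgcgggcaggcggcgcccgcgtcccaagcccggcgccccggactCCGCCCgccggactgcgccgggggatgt
Kcnn3: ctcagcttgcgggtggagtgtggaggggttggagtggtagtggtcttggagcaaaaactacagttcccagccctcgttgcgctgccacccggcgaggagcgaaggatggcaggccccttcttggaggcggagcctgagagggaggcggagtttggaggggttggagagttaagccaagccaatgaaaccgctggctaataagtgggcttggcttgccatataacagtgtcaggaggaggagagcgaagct

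The *Kcnh1* run holds 1 GC box and 62.0% G and C, the *Kcnj4* run 3 and 77.2%, and the *Kcnn3* run 0 and 58.8%. RefSeq windows of 300 bases (250 before the start and 50 after it) were at hand for 33 of the 43 genes. The GC box occurred in 23 of these 33 (69.7%) against 38.2% of all genes with a window, and the median share of G and C before the start was 62.4% over 47 windows of channel genes against 52.4% over all windows. The CRE (TGACGTCA), the AP-1 site (TGANTCA) and the EGR site (GCGTGGGCG), searched on both strands, occurred in 0 of 33, where 2.03%, 8.97% and 0.707% of all genes hold them. The background here was all 27025 genes with a window, more than the 16914 tested, so it includes genes that the filter on low counts left out. A gene could have more than 1 window, with 47 for the 33 channel genes and 32851 for the 27025. These counts say only which letters lie in these windows.

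A further set of channel genes was highest in WT replicate 2 and Mvp KO replicate 2, 1 sample of each genotype. It was noticed after the values had been seen. These were the 2 highest of the 8 samples for 9 of 43 genes (20.9%), against 6.02% of all genes tested. The 9 were *Scn1a*, *Scn4b*, *Kcna2*, *Kcnb2*, *Kcnd2*, *Kcnh7*, *Kcnq5*, *Kcnn1* and *Kcnj3*. *Scn1a* read 177 CPM in WT replicate 2 and 212 CPM in Mvp KO replicate 2, above 113 to 145 CPM in the other 6 samples. For *Kcnh7* the pair read 178 and 194 CPM, above 137 to 158 CPM, and for *Kcnq5* 148 and 157 CPM, above 114 to 132 CPM. In *Kcnj3* they read 182 and 191.5 CPM, above 130.2 to 160.3 CPM. Margins were smaller for *Kcnb2*, with 51.5 and 51.3 CPM above 39.5 to 48.4 CPM, for *Kcnd2*, with 125 and 128 CPM above 107 to 123.5 CPM, and for *Kcnn1*, with 19.8 and 19.2 CPM above 16.3 to 19.02 CPM.

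Among the channel partners, *Kcnab3*, a β subunit of Kv1 channels, and *Kcns1*, a silent subunit of Kv2 channels, had the same 2 highest samples, with 45.5 and 55.6 CPM for *Kcnab3* against 19.6 to 34.3 CPM. *Pvalb*, the calcium-binding protein of fast-spiking interneurons, was also highest in these samples, at 45.8 and 54.4 CPM against 19.2 to 39.8 CPM. The other 4 markers on the fast-spiking interneuron list did not share this order. *Erbb4* read 106 CPM in WT replicate 2 and 115 CPM in Mvp KO replicate 2, within the 92.97 to 116 CPM of the other samples. *Lhx6* read 19.7 and 17.5 CPM, of which the latter was the lowest of the 8 samples, and *Gad1* and *Gad2* were highest in WT replicate 4. The summed level of all 5 listed markers, *Pvalb* included, was 793 and 810.0 CPM in the pair. This sum lay below the 1391 CPM of WT replicate 4, and WT replicate 3 and Mvp KO replicate 3 were at 805 and 795.5 CPM. Most of it came from *Gad1*, at 438 and 443 CPM in the pair, and *Gad2*, at 184 and 181 CPM. These 2 genes mark inhibitory neurons in general, so the sum does not measure fast-spiking cells alone. The part of these cells in the channel values was not tested, and replicate numbers are not stated to mark a shared day or litter. Over all genes tested, deviations from the genotype mean correlated at 0.29 between WT replicate 2 and Mvp KO replicate 2. For replicates 1, 3 and 4 the correlations were 0.055, -0.0067 and 0.051.

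**Figure D4:**
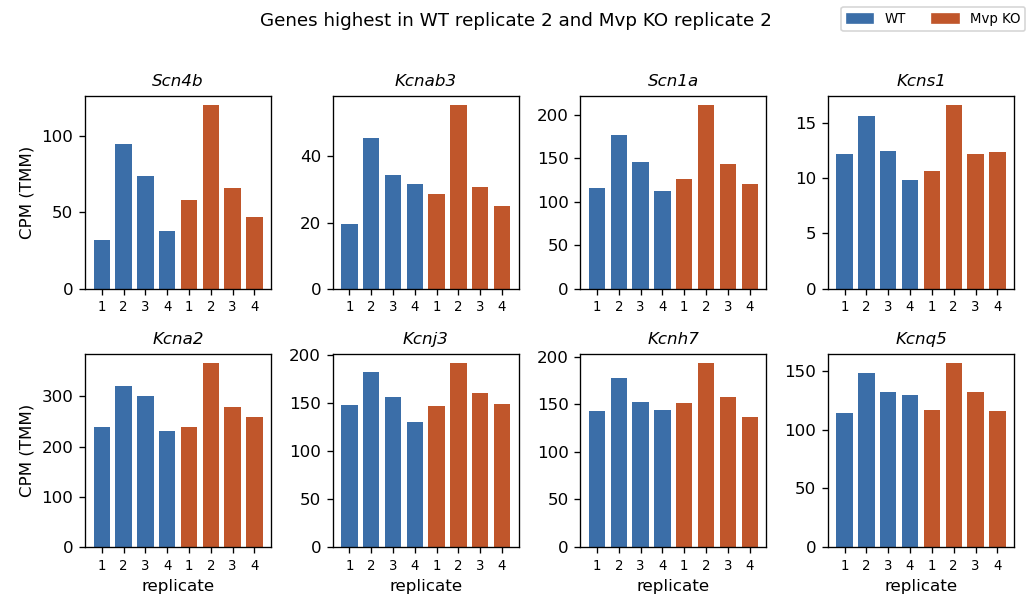
CPM in each sample (bars, replicates 1 to 4 of WT and Mvp KO) for genes highest in WT replicate 2 and Mvp KO replicate 2. The panels are *Scn4b*, *Kcnab3*, *Scn1a*, *Kcns1*, *Kcna2*, *Kcnj3*, *Kcnh7* and *Kcnq5*, of which *Kcnab3* and *Kcns1* are channel partners. The channel genes *Kcnb2*, *Kcnd2* and *Kcnn1* are not drawn. The highest sample of *Scn4b* is 3.78 times the lowest, from 31.9 to 121 CPM, while for *Kcnq5* the ratio is 1.38.

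The partners of these channels were read from the same fit. The list of 25 held auxiliary subunits of Kv4, Kv1 and BK channels, silent Kv subunits, FGF homologous factors that bind sodium channels, the NALCN leak channel with its subunits, and potassium leak channels. The edgeR test called 0 of 25 at an adjusted p under 0.05, 0 had an unadjusted p under 0.05 and 0 had genotypes that did not overlap. Of their log2 fold changes 8 were above 0 and 17 below, with a median of -0.075. Without WT replicate 4 the split was 13 above and 12 below, with a median of 0.0052. That sample was the highest of the 8 for 12 of the 25 partners (48.0%), against the 29.2% of all genes given above.

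The smallest p belonged to *Kcns2*, a silent subunit that modifies Kv2 channels. It read 52.8, 48.7, 53.6 and 77.2 CPM in WT replicates 1 to 4 and 39.1, 44.4, 53.2 and 50.4 CPM in Mvp KO replicates 1 to 4, with a log2 fold change of -0.31 (edgeR adjusted p = 0.969). *Kcnip1*, a calcium sensor that binds Kv4 channels, read 23.95, 24.3, 27.02 and 47.9 CPM in WT replicates 1 to 4 and 21.98, 23.5, 24.3 and 23.1 CPM in Mvp KO replicates 1 to 4. *Dpp10*, a Kv4 auxiliary subunit, read 331, 309, 314 and 399 CPM in WT replicates 1 to 4 and 286, 300, 322 and 298 CPM in Mvp KO replicates 1 to 4. WT replicate 4 was the highest sample of all 3, and without it their log2 fold changes went from -0.31 to -0.14, from -0.41 to -0.11 and from -0.17 to -0.074.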

How the data were processed

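Polyadenylated RNA of mouse cingulate gyrus was sequenced as single ends of 50 bases from 4 WT and 4 Mvp KO males, described as biological replicates. The authors trimmed reads (cutadapt 1.10), removed ribosomal and spike-in reads (bowtie 2.2.8), mapped to mm10 (STAR 2.5.3a) and deposited raw counts per gene from htseq-count 0.6.1p1 with Ensembl release 91. The strand setting is not given in the sources used here. No same-strand exon of another gene overlaps a channel gene, and opposite-strand exons overlap 16 of them. Depth was between 28456504 and 42854368 counts per sample, and the spread between samples, not counting error, sets the precision.

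The counts were scaled with TMM factors and tested with edgeR 4.0.16 in R 4.3.3 (filterByExpr with a minimum count of 10 and a minimum total of 15, robust quasi-likelihood fit with genotype as the single term), with Benjamini-Hochberg adjustment over 16914 genes and a threshold of 0.05. The SE is the absolute log2 fold change over the square root of F, and intervals are 95%. CPM are these scaled counts per 1000000. Exon lengths and positions came from GENCODE vM21 (GRCm38), and the runs before transcript starts from RefSeq (GRCm38.p6). The alternatives were DESeq2's size factors, the DESeq2 1.42.0 Wald test, limma 3.58.1 voom with quality weights per sample, fits without a filter or with 10 counts or more in each sample, the replicate number as a block, and leaving out each sample. The count of genes moved in WT replicate 4 with DESeq2's size factors and the lengths of longest coding transcripts were chosen after seeing the data. Each fit with all samples, and the fit without WT replicate 4, was tested on simulated data in which 200 genes had known changes. The simulated samples were drawn independently, so none was set apart across genes as WT replicate 4 is, and the simulation does not cover that feature. The other fits that leave out a sample were not tested in this way.

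The members, gene lists and tests were chosen with earlier results of these data known. Values in every sample are given for *Mvp*, the 5 members with the smallest p, the member with the highest level per kb in each of 16 role groups, members in which WT replicate 4 was 1.5-fold or more away from the others' median, and the 3 partners with the smallest p. Other genes with values were named after these had been seen. The replicate numbers were checked for pairing, and no sample was dropped or imputed. Samples of a genotype differed from each other by far more than sampling noise, with a mean chi-square per gene of 7.00 to 95.6 between pairs.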

Additional observations from a re-analysis of the deposited data

Results flagged for a closer look

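Within each genotype of 4 samples, the gap of the highest or lowest sample to its nearest neighbour was compared with the whole range. The gap passed Dixon's critical value in 10 of 96 tests (43 channel genes, 3 partners, *Mvp* and the total count, in both genotypes), where chance gives about 4.8 for samples with no shared departure. WT replicate 4 accounted for 8 of the 10, 7 of them channel genes (16.3% of 43), and it passed the same value in 10.3% of all genes tested. It was the high sample for *Kcnh1* at 260.0 CPM, *Kcnj4* at 166.5 CPM, *Cacna1g* at 158 CPM, *Kcnc4* at 102 CPM, *Cacna2d2* at 60.2 CPM, *Kcnn2* at 56.3 CPM and the partner *Kcnip1* at 47.9 CPM, and the low sample for *Cacnb3* at 114 CPM. For *Kcnn2* the other 3 WT samples read 39.0 to 41.6 CPM, and for *Kcnc4* 76.9 to 79.6 CPM. The other 2 were *Mvp* in Mvp KO replicate 3, at 2.13 CPM where the rest of its group lay at 1.44 to 1.51 CPM, and the total count of WT replicate 2, 42854368. No difference between groups other than genotype was tested.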

How the results depend on the processing

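No channel gene passed the threshold in any of the fits tried, and the median log2 fold change of the 43 genes ran from 0.008 to 0.021 over the fits with all 8 samples. When each sample was left out in turn, it ran from -0.057 without Mvp KO replicate 2 to 0.050 without Mvp KO replicate 1, the number of channel genes at an unadjusted p under 0.05 from 0 to 1 (*Scn3a*, without WT replicate 1), the number with genotypes that did not overlap from 0 to 1 (*Cacna2d1*, without WT replicate 3) and the number of all genes past the threshold from 0 to 1. DESeq2's Wald test called 2 genes of all tested (*Mvp* and Bc1) in place of 1. The replicate numbers did not pair the samples as a whole. Correlations of deviations were 0.055, 0.29, -0.0067 and 0.051 for replicates 1 to 4, highest for replicate 2, with 2 of 8 samples closest to their own number. With the replicate block, 0 channel genes and 0 of all genes passed, and *Mvp* had a log2 fold change of -2.07 with an edgeR adjusted p of 0.085. The count of channel genes at least 1.5-fold away in WT replicate 4 was 5 upwards and 5 downwards with either scaling, and 1 of 16 leading genes per kb changed with the longest coding transcript.

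Of 728 values recomputed, 68 log2 fold changes of single genes changed sign, none of them past the threshold. For 16 genes this happened in a fit with all 8 samples, each time with voom's quality weights, where the log2 fold change became -0.007 for *Scn1a*, -0.045 for *Kcna2*, 0.012 for *Kcna4*, -0.011 for *Kcnb2*, 0.031 for *Kcnc4*, -0.024 for *Kcnd2*, 0.026 for *Kcnd3*, 0.011 for *Kcnq3*, 0.023 for *Kcnj4*, 0.056 for *Hcn2*, 0.098 for *Cacna1a*, 0.022 for *Cacna1b*, 0.021 for *Cacna1g*, 0.038 for *Cacna1h*, 0.008 for *Cacna2d2* and 0.010 for *Cacnb1*. *Kcna4* also turned with no filter, to 0.004. The cause was not tested. For 25 genes the sign changed when 1 sample was left out, with ranges of -0.143 to 0.071 for *Cacna1a*, -0.046 to 0.071 for *Cacna1c*, -0.009 to 0.067 for *Cacna1d*, -0.009 to 0.112 for *Cacna1e*, -0.252 to 0.051 for *Cacna1h*, -0.307 to 0.000 for *Cacna2d2*, -0.184 to 0.000 for *Cacnb1*, -0.025 to 0.195 for *Cacnb3*, -0.104 to 0.069 for *Cacnb4*, -0.112 to 0.047 for *Hcn2*, -0.096 to 0.173 for *Kcna1*, -0.078 to 0.154 for *Kcna2*, -0.109 to 0.073 for *Kcna4*, -0.038 to 0.088 for *Kcnb2*, -0.111 to 0.042 for *Kcnc4*, -0.001 to 0.075 for *Kcnd2*, -0.057 to 0.125 for *Kcnh7*, -0.025 to 0.159 for *Kcnj3*, -0.359 to 0.019 for *Kcnj4*, -0.115 to 0.346 for *Kcnn3*, -0.055 to 0.022 for *Kcnq3*, -0.113 to 0.054 for *Kcnq5*, -0.080 to 0.274 for *Scn1a*, -0.057 to 0.614 for *Scn4b* and -0.031 to 0.084 for *Scn8a*. Depth limits no channel gene here, since each had at least 491 counts in every sample.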
